A study of Mus musculus with 2 samples.

Results

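Cadherins and non-clustered protocadherins are cell surface adhesion proteins with repeated extracellular cadherin domains. The set described here held every gene whose symbol in the deposited feature lists was Cdh or Pcdh followed by a number, or Pcdh followed by a number and x, which gave 35 of 32285 genes. By family these were 5 type I classical cadherins, 13 type II classical cadherins, 5 other cadherins, 4 delta-1 protocadherins, 5 delta-2 protocadherins and 3 other protocadherins. The question was which of them mark which neuron group and glial class in both libraries of the study.

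The data were 2 droplet libraries of the ventral tegmental area (VTA), a midbrain region that holds dopaminergic, GABAergic and glutamatergic neurons, from adult mice. The library labelled WT came from wild-type mice. The library labelled CCI came from mice with neuropathic pain after chronic constriction injury of the left sciatic nerve, in which the right nerve was exposed without ligation. Strain, sex, the time after injury and the number of animals pooled are not given in the labels, and the mice carried no stated transgene. The series text speaks of single-nucleus sequencing whereas the protocol describes enzymatic tissue dissociation, and the units are called nuclei here. With 1 library a group there is no replicate, so no test was made and no p-value is given, and every interval below is a 95% interval of counting error alone. Differences between the libraries therefore cannot be told apart from differences between animals, dissections or sequencing runs.

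Classical cadherins bind like partners on the neighbouring cell through calcium-dependent contacts and hold the actin cytoskeleton through catenins. Type II cadherins are expressed in combinations that differ between nuclei and circuits of the brain, and delta-protocadherins carry tails that recruit the WAVE actin regulator and other partners. Cdh23 and Pcdh15 are best known as the pair that forms the tip link of inner ear hair cells.

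The WT library held 14114 barcodes and the CCI library 13736. After filters and removal of called doublets, 12128 WT and 12802 CCI nuclei remained, with medians of 975.5 and 3459.5 unique molecular identifiers (UMIs, 1 per captured transcript). The libraries shared 54 barcodes, 37 of them among the kept nuclei. Nuclei were clustered without the 35 genes and named from marker lists that hold none of them. This gave 5934 WT and 6638 CCI neurons, 1263 and 1482 astrocytes, 3813 and 3692 oligodendrocytes, 546 and 383 oligodendrocyte precursors (OPCs), 219 and 22 committed oligodendrocyte precursors (COPs), 235 and 372 microglia and 40 and 72 fibroblasts. Several clusters held mostly nuclei of 1 library, among them the 2 astrocyte clusters (1147 WT and 160 CCI nuclei, and 116 and 1322). A dopaminergic subcluster held 228 CCI nuclei and 0 WT nuclei.

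Promoter sequences are shown for 3 members on which the class patterns turn: Cdh8, which marked neurons, Cdh20, which marked 4 glial classes, and Pcdh17, which had the highest level per length of any member in COPs. Each is the stretch of 250 bases before the RefSeq start site (build GRCm38.p6), written 5′ to 3′ on the strand of the gene, with the CCAAT box and its reverse complement ATTGG in capitals. The coordinates are chr8:99416472-99416721 on the minus strand for Cdh8, chr1:104768270-104768519 on the plus strand for Cdh20 and chr14:84443313-84443562 on the plus strand for Pcdh17.
Cdh8: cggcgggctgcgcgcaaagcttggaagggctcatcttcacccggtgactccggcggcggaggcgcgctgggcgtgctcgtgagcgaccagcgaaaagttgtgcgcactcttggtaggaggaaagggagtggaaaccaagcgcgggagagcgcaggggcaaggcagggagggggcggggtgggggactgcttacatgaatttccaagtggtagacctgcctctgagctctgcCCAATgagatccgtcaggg
Cdh20: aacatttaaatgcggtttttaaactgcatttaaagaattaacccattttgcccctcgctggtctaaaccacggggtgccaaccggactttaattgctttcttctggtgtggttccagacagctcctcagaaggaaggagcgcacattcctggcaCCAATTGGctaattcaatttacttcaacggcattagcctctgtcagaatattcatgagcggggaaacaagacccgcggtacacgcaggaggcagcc
Pcdh17: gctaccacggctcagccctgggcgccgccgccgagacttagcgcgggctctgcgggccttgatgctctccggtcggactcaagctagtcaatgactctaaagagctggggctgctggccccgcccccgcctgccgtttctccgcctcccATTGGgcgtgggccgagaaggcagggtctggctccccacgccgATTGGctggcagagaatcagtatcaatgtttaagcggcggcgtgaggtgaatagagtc
The Cdh20 window held CCAAT on both strands, overlapping in 1 site, the Pcdh17 window held 2 copies of ATTGG and the Cdh8 window held 1 CCAAT. None of the 3 windows held the SOX factor cores ACAAAG or ACAATG on either strand. RefSeq promoters were counted for 22 of the 35 members. Those of the other members, Cdh2, Pcdh1 and Pcdh12 among them, were left out of the member counts only. The members and all promoters were therefore not selected alike. A member was counted if any of its start sites held the motif, whereas the shares over all promoters are per start site. The 2 are therefore not alike for members with several start sites, such as Cdh7 and Pcdh9. CCAAT on either strand was in 14 of these 22 members and in 33.8% of all 32851 promoters of the same length. A SOX core was in 5 of the 22 and in 25.2% of all promoters. Of the 6 neuron-marking members with a counted promoter, 4 had CCAAT and 1 had a SOX core. Of the 8 members with a counted promoter that marked a glial class and not neurons, 5 had CCAAT and 1 had a SOX core. A match is a description of these letters and not a binding site.

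Of the 35 members, 27 had at least 20 UMIs in each library. Below that count were Cdh1, Cdh3 and Cdh15 of type I, Cdh5 of type II, Cdh16, Cdh17 and Cdh26 of the other cadherins, and Pcdh12. Levels are given as CPM, the UMIs of the gene per 1000000 UMIs of the class. Between genes they are ranked per 100 kb of gene length, because gene lengths differ widely. This ranking assumes that UMIs rise with gene length, as where intronic reads are counted, which the sources do not state. Per 100 kb, Pcdh9, a delta-1 protocadherin, was the highest member over all nuclei, at 944.5 CPM in the WT library and 604 in the CCI library. In neurons Pcdh9 was also first (558 and 419.5 CPM per 100 kb) and was followed in WT by Pcdh7 and in CCI by Pcdh17 and Pcdh10. In oligodendrocytes Pcdh9 reached 2380.0 and 1743 CPM per 100 kb, followed by Cdh19 at 1052 and 727. In COPs Pcdh17 was first, with 2272 and 1918 CPM per 100 kb, ahead of Pcdh9. Pcdh9 was first as well in astrocytes (790.4 and 584 CPM per 100 kb), OPCs (1090.0 and 869) and microglia (565 and 277). In fibroblasts it was first in WT (479), and Pcdh7 was first in CCI (270). In dopaminergic neurons Cdh11 was first in both libraries, with 491 and 440.2 CPM per 100 kb. Without division by length its level there (754 and 676 CPM) was below that of Pcdh9 (2361 and 1874 CPM).

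A member was said to mark a class where its CPM there was at least 2-fold the CPM in all other kept nuclei in both libraries, with intervals above equality and at least 10 UMIs in the class in each. By this rule 18 of the 27 members (66.7%) marked at least 1 of 7 classes, in 22 gene and class pairs, against 36.6% of all 16844 genes that could be called. Calls come more easily to genes with many UMIs, and the members were not matched to other genes on level. The class with the highest level was the same in both libraries for 19 of 27 members, against 46.8% of 15879 genes. By family, neurons were marked by 1 of 2 counted type I cadherins, 6 of 12 type II cadherins, 1 of 2 other cadherins and 0 of the 11 counted protocadherins, where 17.7% of all genes were called. A glial class was marked by 0 of 2 type I, 4 of 12 type II and 1 of 2 other cadherins, and by 2 of 4 delta-1, 1 of 5 delta-2 and 2 of 2 other protocadherins. The share of all genes called in a single glial class ran from 7.73% in OPCs to 22.6% in COPs. The family counts take a mark in any glial class, for which the share of all genes was not counted, so the 2 are not directly comparable.

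**Figure D1:**
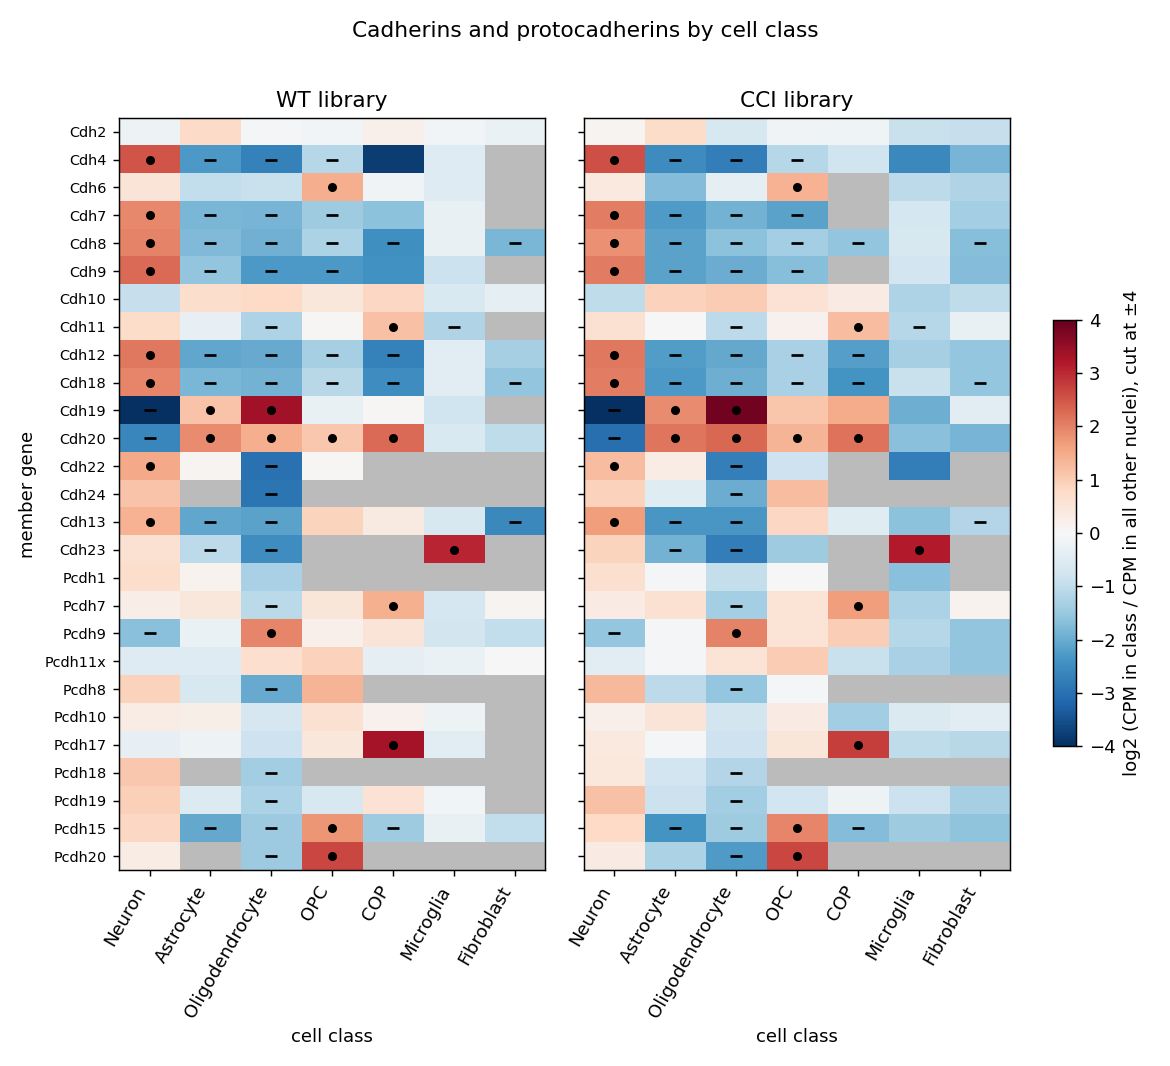
Log2 ratio of the CPM in each cell class (columns) over the CPM in all other nuclei, for the 27 counted members (rows) in the WT and CCI libraries. Dots mark members at least 2-fold higher in both libraries, dashes those at least 2-fold lower, and grey cells those with fewer than 10 UMIs both counted and expected; the neuron column holds 8 dots.

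Neurons were marked by 8 members: Cdh4, Cdh7, Cdh8, Cdh9, Cdh12, Cdh13, Cdh18 and Cdh22, where 17.7% of all genes were called. Cdh4, the type I R-cadherin, had 218 CPM in neurons against 37.8 in other nuclei in WT and 227 against 38.4 in CCI (log2 ratio 2.53, interval 2.31 to 2.75, and 2.56, 2.44 to 2.69). Cdh9, a type II cadherin known from hippocampal synapses, had 110 CPM against 22.9 in WT and 80.4 against 18.98 in CCI (2.26, 1.99 to 2.55, and 2.08, 1.90 to 2.27). Cdh12 had 393 against 90.5 and 374 against 87.1 CPM (2.12 and 2.10). These 3 had the largest ratios in neurons in both libraries. Cdh8 had 688 against 176 CPM in WT and 611 against 174 in CCI (1.97 and 1.82). Cdh18 had 1833 against 473 and 1529 against 367 CPM (1.95 and 2.06), and Cdh7 had 109 against 29.0 and 109 against 26.6 CPM (1.91 and 2.03). The intervals of Cdh7, Cdh8 and Cdh18 overlapped one another in WT. Cdh13, T-cadherin, which is held by a lipid anchor and has no cytoplasmic tail, had 437 against 166 and 481 against 151 CPM (1.39 and 1.67). Its level was higher in OPCs than in neurons, at 640 and 717 CPM, and it was no longer called when the other classes were weighted equally. Cdh22 had 39.3 against 13.7 and 48.4 against 20.7 CPM (1.52 and 1.23), with 33.7 and 50.6 CPM in astrocytes.

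Cdh20, a type II cadherin, was the member that marked most classes. Astrocytes held it at 1319 (WT) and 1146 CPM (CCI). It stood at 861 and 1028 CPM in oligodendrocytes, 844 and 773 in OPCs and 1859 and 1390.0 in COPs. In neurons it was at 159 and 119 CPM, against 966 and 963 CPM in all other nuclei (log2 ratio −2.60, interval −2.68 to −2.52, and −3.01, −3.06 to −2.97). Against the other nuclei the log2 ratios were 1.90 and 2.16 in astrocytes (12.3% of all genes called), 1.47 and 2.30 in oligodendrocytes (11.2%), 1.07 and 1.36 in OPCs (7.73%) and 2.25 and 2.17 in COPs (22.6%). When the other classes were weighted equally, Cdh20 was no longer called in astrocytes, oligodendrocytes or OPCs. The order of its levels was COP, astrocyte, then oligodendrocyte and OPC. The oligodendrocyte and OPC intervals overlapped in WT and not in CCI, and those of COPs and astrocytes overlapped in CCI and not in WT. Cdh20, Cdh7 and Cdh19 lie within 1 stretch of chromosome 1 (GENCODE, build mm10), from 104768529 to 104995481, from 109982431 to 110140157 and from 110888326 to 110977584. Cdh7 marked neurons, with 24.8 and 19.7 CPM in astrocytes, whereas Cdh20 and Cdh19 were lower in neurons than in all other nuclei together.

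Cdh19, known from Schwann cells and the neural crest lineage, marked oligodendrocytes and astrocytes. In oligodendrocytes it had 939 CPM against 90.9 in other nuclei in WT and 649 against 44.4 in CCI (log2 ratio 3.37, interval 3.27 to 3.47, and 3.87, 3.80 to 3.94), the largest ratios above equality of any called member in any class in both libraries. In astrocytes it had 515 against 231 and 383 against 103 CPM (1.16 and 1.89). In neurons it was at 38.8 and 11.2 CPM. Pcdh9 marked oligodendrocytes, with 20875 against 5396 CPM in WT and 15288 against 3863 in CCI (1.95 and 1.98). Across the 5 oligodendrocyte clusters Pcdh9 ranged from 19383 to 27374 CPM in WT and from 12274 to 21180 CPM in CCI, above its level in every other class. The calls of Cdh19 and Pcdh9 in oligodendrocytes held under all 13 other settings, whereas Cdh19 in astrocytes was lost under equal weights, at 3-fold, and with each nucleus thinned to 1000 UMIs.

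**Figure D2:**
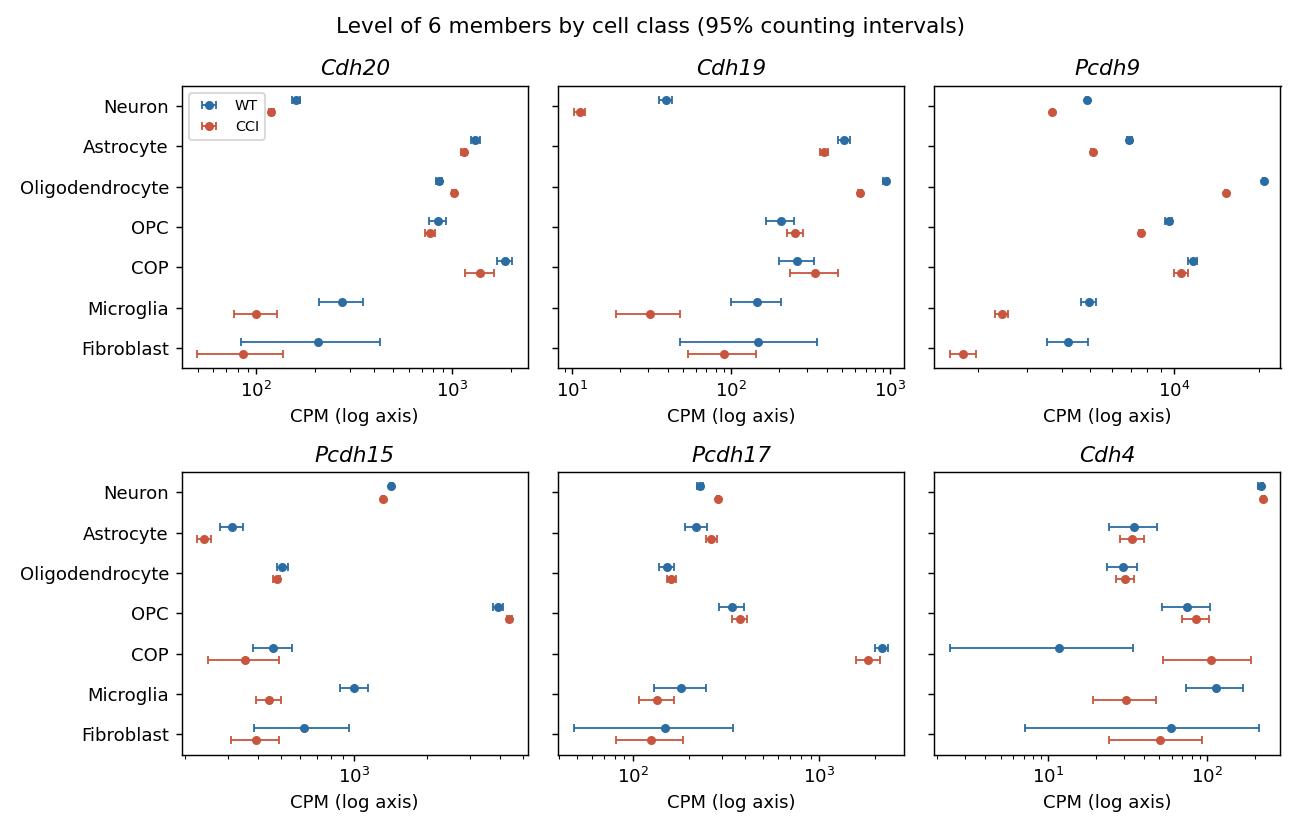
CPM with 95% counting intervals (points and bars, log axis) of 6 members in 7 cell classes in the WT (blue) and CCI (red) libraries. In WT, Cdh20 and Cdh19 are lowest in neurons, Pcdh15 is highest in OPCs and Pcdh17 is highest in COPs in both libraries.

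OPCs were marked by Pcdh15, Pcdh20, Cdh6 and Cdh20. Pcdh15 had 3929 CPM in OPCs against 1146 in other nuclei in WT and 4380.1 against 1119 in CCI (log2 ratio 1.78, interval 1.71 to 1.85, and 1.97, 1.93 to 2.01). In COPs, the next stage of the lineage, Pcdh15 was at 461 and 355 CPM, below the other nuclei (−1.43 and −1.74), and in oligodendrocytes at 504 and 479 CPM. Its neuronal level was 1424 and 1312 CPM. Pcdh20, a short gene with a low count, had 40.5 against 6.29 CPM in WT and 35.9 against 5.62 in CCI (2.69 and 2.68), from 19 and 45 UMIs. Cdh6 had 134 against 49.1 and 178 against 67.6 CPM (1.45 and 1.4). The Pcdh15 call held under all 13 other settings, and the Pcdh20 call was lost at 30 UMIs and with thinning.

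COPs, the stage between precursor and myelinating cell, were marked by Pcdh17, Cdh20, Pcdh7 and Cdh11. Pcdh17, a delta-2 protocadherin, had 2168 CPM against 216 in WT and 1831 against 268 in CCI (log2 ratio 3.33, interval 3.20 to 3.46, and 2.77, 2.56 to 2.98). Its level was 339 and 375 CPM in OPCs and 152 and 161 CPM in oligodendrocytes, so that it was lower on either side of COPs, although OPCs held its second-highest level. Pcdh7 had 3276 against 1236 and 3231 against 1018 CPM (1.41 and 1.67), with 1757 and 1471 CPM in OPCs and 667 and 434 in oligodendrocytes. Cdh11 had 639 against 283 and 566 against 238 CPM (1.17 and 1.25). The 7 oligodendrocyte markers summed to 16178 CPM in WT and 15165 in CCI COPs, against 24648 and 18245 in oligodendrocytes. The 6 COP markers summed to 5870 and 6087 CPM in COPs, against 813 and 918 in oligodendrocytes. The 6 OPC markers summed to 5379 and 5205 CPM in COPs, against 10745 and 11129 in OPCs and 353 and 319 in oligodendrocytes. Of these 6, C1ql1 was at 0 in WT COPs, and Pdgfra, Cspg4 and C1ql1 in CCI COPs. The CCI class held 22 nuclei, and no class of COPs with enough nuclei was found at clustering resolutions 0.5 and 2.0 or under a marker gate (nuclei assigned by their own marker transcripts without clusters).

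Microglia were marked by Cdh23 alone, where 12.2% of all genes were called. Cdh23 had 118 CPM against 14.4 in WT and 247 against 27.6 in CCI (log2 ratio 3.03, interval 2.39 to 3.62, and 3.16, 2.92 to 3.40), from 26 and 159 UMIs. The 7 neuronal markers summed to 11511 CPM in WT microglia and 6873 in CCI microglia, against 21872 and 23732 in neurons, and Cdh23 was at 17.8 and 33.4 CPM in neurons. The call was lost at 30 UMIs, under the marker gate and with thinning. None of the 7 members that could be called in fibroblasts marked them, where 23.9% of 654 genes were called.

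Of the 8 members below the count limit, 2 were seen mainly in a rare class. Cdh5, the VE-cadherin of blood vessels, had 28 of its 49 CCI UMIs in 62 endothelial nuclei, a level of 208 CPM, and 16 UMIs in CCI fibroblasts. It had 0 UMIs in the 6 WT endothelial nuclei, which allows a level of up to 725 CPM. Cdh1, the epithelial E-cadherin, had 25 of its 37 CCI UMIs in 1 of 2 fibroblast clusters, at 432 CPM in 19 nuclei, and 1 UMI in 12 WT nuclei of that cluster. Neither could be called. The other 6 had 2 to 27 UMIs in CCI and at most 5 in WT.

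The mirrored rule, a level at least 2-fold below the other nuclei in both libraries, was added after the values were seen and gave 43 pairs in 20 members, against 38.1% of all genes. Oligodendrocytes were below the other nuclei in 17 members (26.3% of all genes), astrocytes in 9 (19.5%), OPCs in 6 (10.4%), COPs in 4 (28.2%), neurons in 3 (14.6%), fibroblasts in 3 (28.5%) and microglia in 1, Cdh11 (4.01%). The 3 in neurons were Cdh20, Cdh19 and Pcdh9. In oligodendrocytes the median log2 ratio over 23 members was −1.27 in WT and −1.35 in CCI, against −0.09 in each library over 12104 genes. In neurons it was 0.73 and 0.63 over 27 members, against 0.19 and 0.13 over 16546 genes. Cdh4, Cdh7, Cdh8, Cdh9, Cdh12, Cdh13 and Cdh18, which were high in neurons, were low in both astrocytes and oligodendrocytes.

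No class was marked by 9 counted members. Cdh2, N-cadherin, was at 375 and 359 CPM in neurons, 636 and 560 in astrocytes and 384 and 238 in oligodendrocytes. Cdh10 was lower in neurons (415 and 338 CPM) than in astrocytes (835 and 744) and oligodendrocytes (807 and 746). Pcdh11x was highest in OPCs, with 1010.5 CPM against 528 in other nuclei in WT and 741 against 365 in CCI (log2 ratio 0.94 and 1.02). It thus passed 2-fold in CCI only. Pcdh10, Pcdh19, Pcdh1, Pcdh8, Pcdh18 and Cdh24 completed the list, the last 3 of these with between 100 and 616 UMIs a library.

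Among neurons, 8 groups were compared, each against all other neurons of its library. They were dopaminergic neurons (834 WT and 366 CCI nuclei), GABAergic neurons of Gata3, Tal1, Pax5 type (339 and 134), GABAergic neurons of Meis2, Pax6, Dlx type (47 and 182), neurons of Synpo2, Lef1, Prkcd type (131 and 584), of Ebf2, Ebf3, Lmx1a type (434 and 817) and of Sim1 and Calcr type (35 and 236), other GABAergic neurons (1155 and 1396) and other neurons with a vesicular glutamate transporter (341 and 220). A further 2601 WT (43.8%) and 2262 CCI neurons (34.1%) were unnamed, and 17 and 441 were orexin and melanin-concentrating hormone neurons. These were not compared as groups but were part of the other neurons in each comparison. By the same rule 7 of 27 members (25.9%) marked at least 1 group, in 9 pairs, against 8.51% of 12666 genes. The same group was highest in both libraries for 12 of 27 members, against 29.2% of 14767 genes. The mirrored rule gave 9 members in 11 pairs, against 9.97% of all genes.

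**Figure D3:**
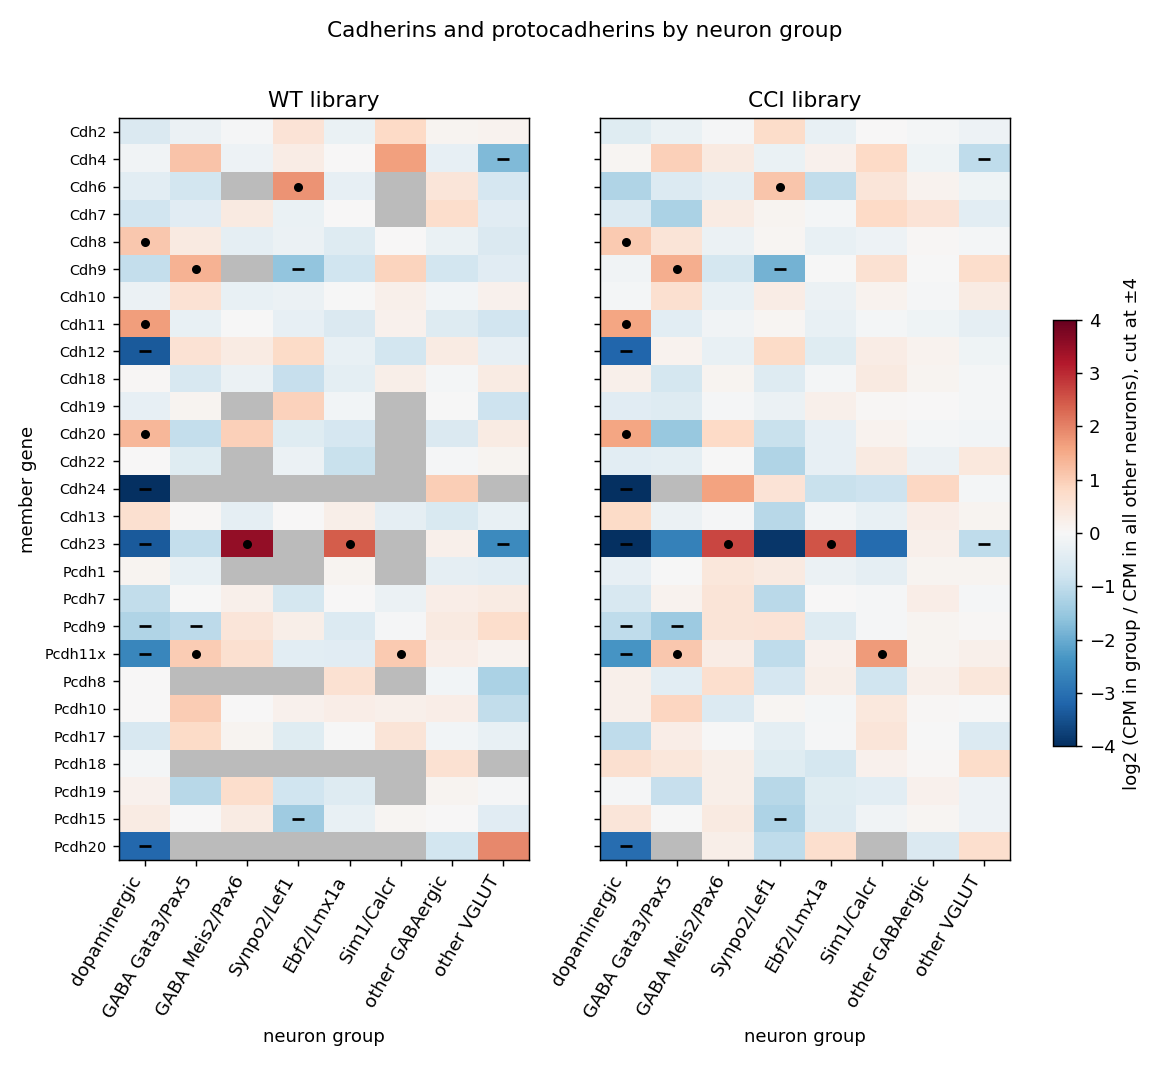
Log2 ratio of the CPM in each neuron group (columns) over the CPM in all other neurons, for the 27 counted members (rows) in the WT and CCI libraries. Dots, dashes and grey cells are as in the plot of cell classes; the dopaminergic column holds 3 dots and 6 dashes, more than any other group.

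Dopaminergic neurons were marked by Cdh11, Cdh20 and Cdh8, all of type II, where 4.47% of all genes were called. Cdh11 had 754 CPM against 239 in other neurons in WT and 676 against 225 in CCI (log2 ratio 1.66, interval 1.56 to 1.75, and 1.59, 1.52 to 1.65). Cdh20 had 314 against 126 and 311 against 104 CPM (1.32 and 1.58), and Cdh8 had 1218 against 574 and 1168 against 566 CPM (1.09 and 1.05). In the CCI library the dopaminergic neurons fell into 2 subclusters. Cdh11 was at 326 CPM in the one shared with WT (138 CCI nuclei) and at 830 in the other (228 CCI nuclei). The WT nuclei were all in the shared one, at 754 CPM. Cdh8 stood at 648 and 1396 CPM and Cdh20 at 161 and 376 CPM in these CCI subclusters. Under the marker gate, none of the 3 was called. The Cdh20 and Cdh8 calls were also lost at 3-fold. The Cdh8 call was lost as well when the other groups were weighted equally and with thinning.

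Dopaminergic neurons were also the group with most members low, 6, where 6.65% of all genes were called. Cdh12, a marker of neurons at large, had 45.7 CPM in dopaminergic against 467 in other neurons in WT and 44.8 against 401 in CCI (log2 ratio −3.36, interval −3.68 to −3.05, and −3.16, −3.40 to −2.94). That is below its level of 85.3 CPM in WT and 83.0 in CCI oligodendrocytes. Pcdh11x had 91.9 against 560 and 71.6 against 369 CPM (−2.61 and −2.36). Pcdh9 had 2361 against 5445 and 1874 against 3828 CPM (−1.21 and −1.03). Cdh23 had 4 and 7 UMIs (−3.35 and −4.20), Cdh24 had 1 and 2, and Pcdh20 had 2 and 3. The intervals of these were wide, for Cdh24 −9.50 to −1.66 in WT and −7.04 to −2.13 in CCI.

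Within the dopaminergic group, nuclei were split by whether transcripts of Sox6, Aldh1a1 and Lmo3 or of Calb1, Otx2, Calb2 and Slc17a6 prevailed, the first set known from the ventral tier of the substantia nigra and the second from the VTA. This gave 460 WT and 230 CCI nuclei on the Sox6 side, 95 and 89 on the Calb1 side, and 279 and 47 ties. Cdh11 was higher on the Sox6 side, with 924 against 361 CPM in WT and 839 against 301 in CCI (log2 ratio 1.36, interval 1.02 to 1.71, and 1.48, 1.29 to 1.67), where 0.754% of all genes were called. Pcdh7, Cdh12 and Pcdh11x were higher on the Calb1 side, where 1.29% were called. Pcdh7 had 1238 CPM there against 536 in WT and 1288 against 484 in CCI. Cdh12 had 90.1 against 27.2 and 83.9 against 32.3 CPM, and Pcdh11x had 152 against 66.0 and 125 against 48.8 CPM. Cdh12 and Pcdh11x, both low in the group as a whole, were thus lower on the Sox6 side than on the Calb1 side. The median depth was also higher on the Sox6 side, 2465 against 1954 UMIs in WT and 9681 against 7854 in CCI.

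GABAergic neurons of Gata3, Tal1, Pax5 type were marked by Cdh9 and Pcdh11x, where 1.42% of all genes were called. Cdh9 had 258 CPM against 99.0 in other neurons in WT and 211 against 77.2 in CCI (log2 ratio 1.38 and 1.45). The Cdh9 call was lost at 3-fold and under the marker gate. Pcdh11x had 899 against 447 and 708 against 337 CPM (1.01 and 1.07), just past 2-fold, and was not called under 6 of 13 other settings. Pcdh9 was low in the group, at 2448 and 1376 CPM (−1.05 and −1.44; 2.78% of all genes). Pcdh10, also known as OL-protocadherin, was the highest member there per length, at 489.5 and 483 CPM per 100 kb, and was just 2-fold higher than in other neurons in WT and under 2-fold in CCI. Pcdh9 was the highest member per length in the Meis2, Pax6, Dlx and Synpo2, Lef1, Prkcd types and both pools in both libraries. In the Sim1 and Calcr type it was first in WT (544) and Pcdh17 in CCI (415), and in the Ebf2, Ebf3, Lmx1a type Pcdh8 was first in WT (402, from 14 UMIs) and Pcdh9 in CCI (305). Neurons of Sim1 and Calcr type were marked by Pcdh11x as well (2.49% of all genes), with 972 against 475 and 1044 against 324 CPM (1.03 and 1.69). This call rests on 35 WT nuclei and was not made under 7 of 13 other settings, and under the marker gate the WT log2 ratio was −0.04. No member was low in the Sim1 and Calcr type (3.15%), the Meis2, Pax6, Dlx type (1.67%), the Ebf2, Ebf3, Lmx1a type (0.904%) or other GABAergic neurons (1.12%).

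Cdh23 marked 2 neuron groups besides microglia. In GABAergic neurons of Meis2, Pax6, Dlx type it had 187 CPM against 16.4 in other neurons in WT and 184 against 29.2 in CCI (log2 ratio 3.51, interval 2.67 to 4.25, and 2.66, 2.46 to 2.86), from 16 and 240 UMIs, where 1.12% of all genes were called. In neurons of Ebf2, Ebf3, Lmx1a type it had 72.9 against 13.6 and 121 against 21.0 CPM (2.42 and 2.52), from 56 and 710 UMIs, where 0.669% were called. Within the latter group nearly all of it came from 1 of 3 subclusters, led by Ntng2, Sema3a and Tac1 besides Cdh23 itself, which held 54 of the 56 WT and 700 of the 710 CCI UMIs. There Cdh23 was at 189 CPM against 13.1 in other neurons and 242 against 19.8 (3.84 and 3.61; 0.935% of all genes higher). The other 2 subclusters of the group held 2 and 0 UMIs in WT and 7 and 3 in CCI. Cdh23 had not been used to form these clusters. Its partner in hair cells, Pcdh15, was low in the same subcluster, at 598 and 531 CPM against 1447 and 1363 in other neurons (−1.28 and −1.36; 1.59% lower). The Cdh23 call in the Meis2, Pax6, Dlx type was lost at 30 UMIs. That group lacked enough nuclei when members were allowed in clustering. The Cdh23 call in the Ebf2, Ebf3, Lmx1a type was lost under the marker gate.

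Neurons of Synpo2, Lef1, Prkcd type, whose marker genes include thalamic transcription factors, were marked by Cdh6, where 5.64% of all genes were called. Cdh6 had 187 CPM against 53.3 in WT and 140.5 against 65.1 in CCI (log2 ratio 1.81 and 1.11). The Cdh6 call was lost at 3-fold, under the marker gate and with thinning. Pcdh15 was low in this type, at 539 and 596 CPM (−1.43 and −1.24). Cdh9 was low as well, at 37.3 and 23.5 CPM (−1.58 and −1.90), where 4.89% of all genes were called. The 3 subclusters of the group differed in Cdh13. It was at 142 and 138 CPM in the subcluster led by Lef1 (10.3% of all genes lower) and at 113 and 115 in the one led by Prkch and Tcf7l2 (4.89%), low in both against other neurons. In the one led by Lypd6b it reached 1037 and 1171 CPM (3.96% higher). Of these 3, the Lef1 subcluster carried the Cdh6 and Cdh12 marks, with 195 and 191 CPM of Cdh6 and 942 and 776 CPM of Cdh12 (12.5% higher). The pools of other GABAergic neurons and other neurons with a vesicular glutamate transporter were marked by no member (0.445% and 0.886% of all genes); in the second, Cdh4 (68.4 and 115 CPM) and Cdh23 were low (1.2%).

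At the level of 22 neuron subclusters, 10 of 27 members marked at least 1, in 15 pairs, against 10.9% of all genes, and 18 were low in at least 1, in 31 pairs, against 10.2%. The subcluster with most marks, 3, was an unnamed subcluster led by Glis3, Slit3 and Itga8 (173 WT and 67 CCI nuclei; 8.46% of all genes called), which the group marks do not show. Cdh9 had 786 CPM there against 92.4 in other neurons in WT and 435 against 77.1 in CCI (log2 ratio 3.09, interval 2.87 to 3.30, and 2.50, 2.28 to 2.71). Cdh13 had 936 against 424 and 1291 against 474 CPM (1.14 and 1.44), and Pcdh20 had 40.2 against 6.90 and 32.4 against 6.30 CPM, from 11 and 14 UMIs. Cdh18 was low in this subcluster, at 212 and 391 CPM against 1875 and 1539.6 (−3.14 and −1.98). Pcdh10, Pcdh15, Cdh6, Cdh7, Cdh20 and Cdh22 were low there as well (9.26% of all genes). Other pairs were Cdh20 (369 and 323 CPM) with Cdh10 (862 and 818 CPM) in a glutamate transporter subcluster led by Gulp1, Ebf1 and C1ql1 (2.54%). Cdh19 marked an unnamed subcluster led by the haemoglobin transcripts Hbb-bs, Hbb-bt and Hba-a1, with 226 and 109 CPM from 10 and 22 UMIs (6.61%).

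**Figure D4:**
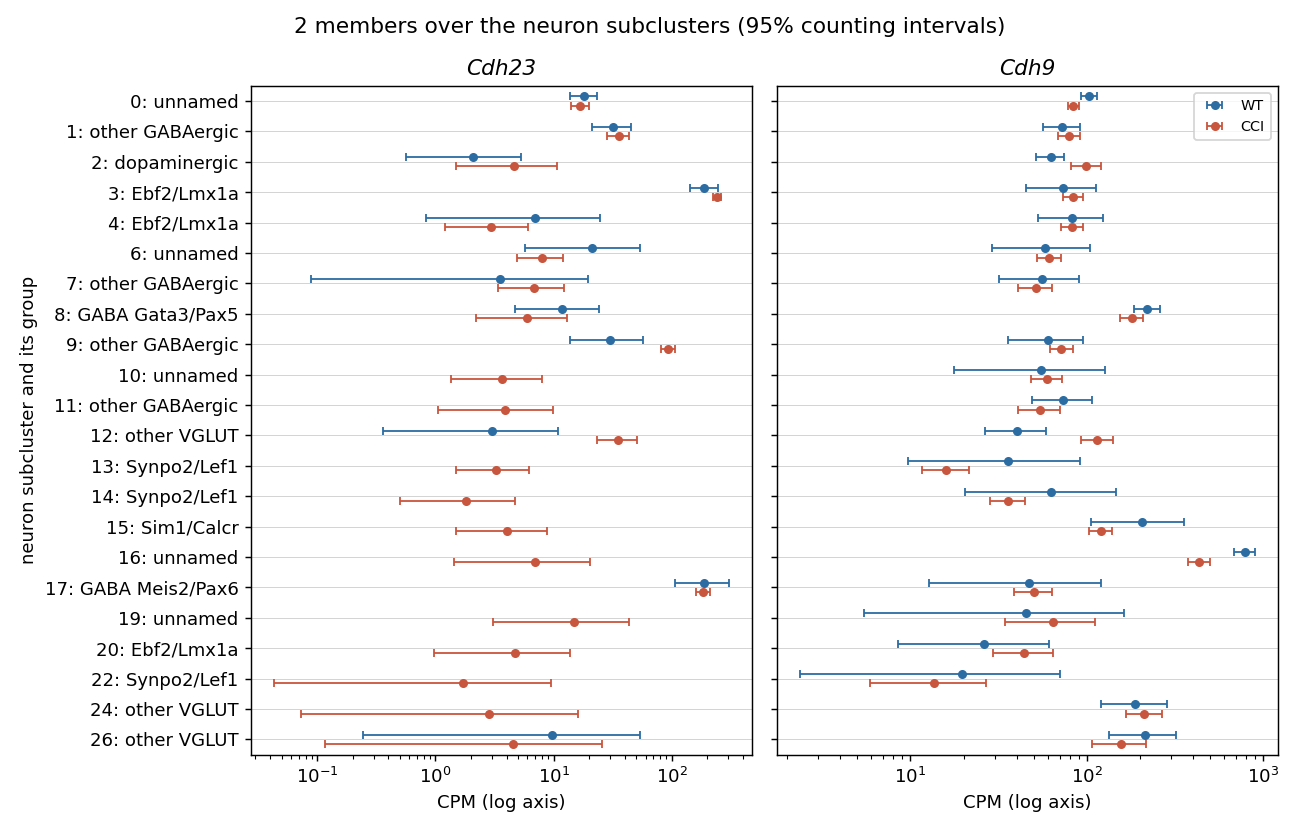
CPM with 95% counting intervals (points and bars, log axis) of Cdh23 and Cdh9 in 22 neuron subclusters, in WT (blue) and CCI (red); no point is drawn where no UMI was counted. Cdh23 is highest in subclusters 3 and 17 in both libraries, and Cdh9 is highest in subcluster 16.

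Partner genes were followed with the same rule. Of 10 catenins and related plaque genes, 6 marked a class, where 36.6% of all genes did: Ctnnd2 in astrocytes (3228 against 1392 and 3143 against 1448 CPM), Ctnna3, Jup and Pkp4 in oligodendrocytes, the last of these also in COPs, Arvcf in OPCs and Pkp2 in neurons. In neuron groups 3 of 10 did, against 8.51% of all genes. Ctnna1, alpha-catenin, marked dopaminergic neurons with 186 against 47.7 CPM in WT and 198 against 38.3 in CCI (log2 ratio 1.97 and 2.37). Pkp2, a plakophilin of desmosomes, and Ctnnd1, p120 catenin, marked the Synpo2, Lef1, Prkcd type, Pkp2 with 109 against 8.61 and 110.1 against 13.2 CPM. Of 10 genes of the WAVE complex and other partners of delta-protocadherin tails, 5 marked a class and 0 a neuron group, against the same 36.6% and 8.51%. Wasf2 and Cyfip1 marked microglia and astrocytes, Wasf3 and Abi1 astrocytes, and Wasf1 COPs. Of the other cadherin superfamily genes, 10 of 15 marked a class (36.6% of all genes) and 3 of 11 a neuron group (8.51%), namely Fat4, Clstn2 and Ret, all in dopaminergic neurons. Ret was among the markers that named that group.

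Between the libraries, members were compared within 5 classes of at least 50 nuclei and called past 1.5-fold with an interval that excluded equality and at least 20 UMIs. Of 128 pairs, 4 were higher and 18 lower in CCI, and 11 of the 18 were in microglia. In neurons, 1 of 29 members was higher (6.02% of all genes) and 1 lower (5.78%). Cdh23 was at 17.8 CPM in WT and 33.4 in CCI neurons (log2 ratio 0.91, interval 0.69 to 1.13). The groups in which Cdh23 is high made up more of the CCI neurons, 817 against 434 nuclei for the Ebf2, Ebf3, Lmx1a type and 182 against 47 for the Meis2, Pax6, Dlx type. Within the subclusters that it marked, the ratio was 0.36 (−0.04 to 0.78) in the first and −0.02 (−0.75 to 0.81) in the second. Cdh23 was also higher in CCI in other GABAergic neurons (20.1 and 37.5 CPM, 0.90, 0.43 to 1.41) and in other neurons with a vesicular glutamate transporter (2.37, 0.69 to 4.73, from 3 and 30 UMIs), where it was called in 4 and 3 of 10 other settings. Among the other GABAergic neurons, a subcluster with Cdh23 among its leading genes held 109 of 1155 WT and 283 of 1396 CCI nuclei. The part of this subcluster in the result was not tested. Cdh19 was at 38.8 CPM in WT and 11.2 in CCI neurons (−1.80, −1.98 to −1.61), and was lower in all 6 neuron groups compared, with log2 ratios from −1.09 to −2.89. The 7 oligodendrocyte markers summed to 1190.4 CPM in WT and 347 in CCI neurons, with all 7 lower in CCI and none at 0, and from 799 to 1466 CPM in WT and 246 to 366 in CCI over the 8 groups; their part in the Cdh19 result was not tested.

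**Figure D5:**
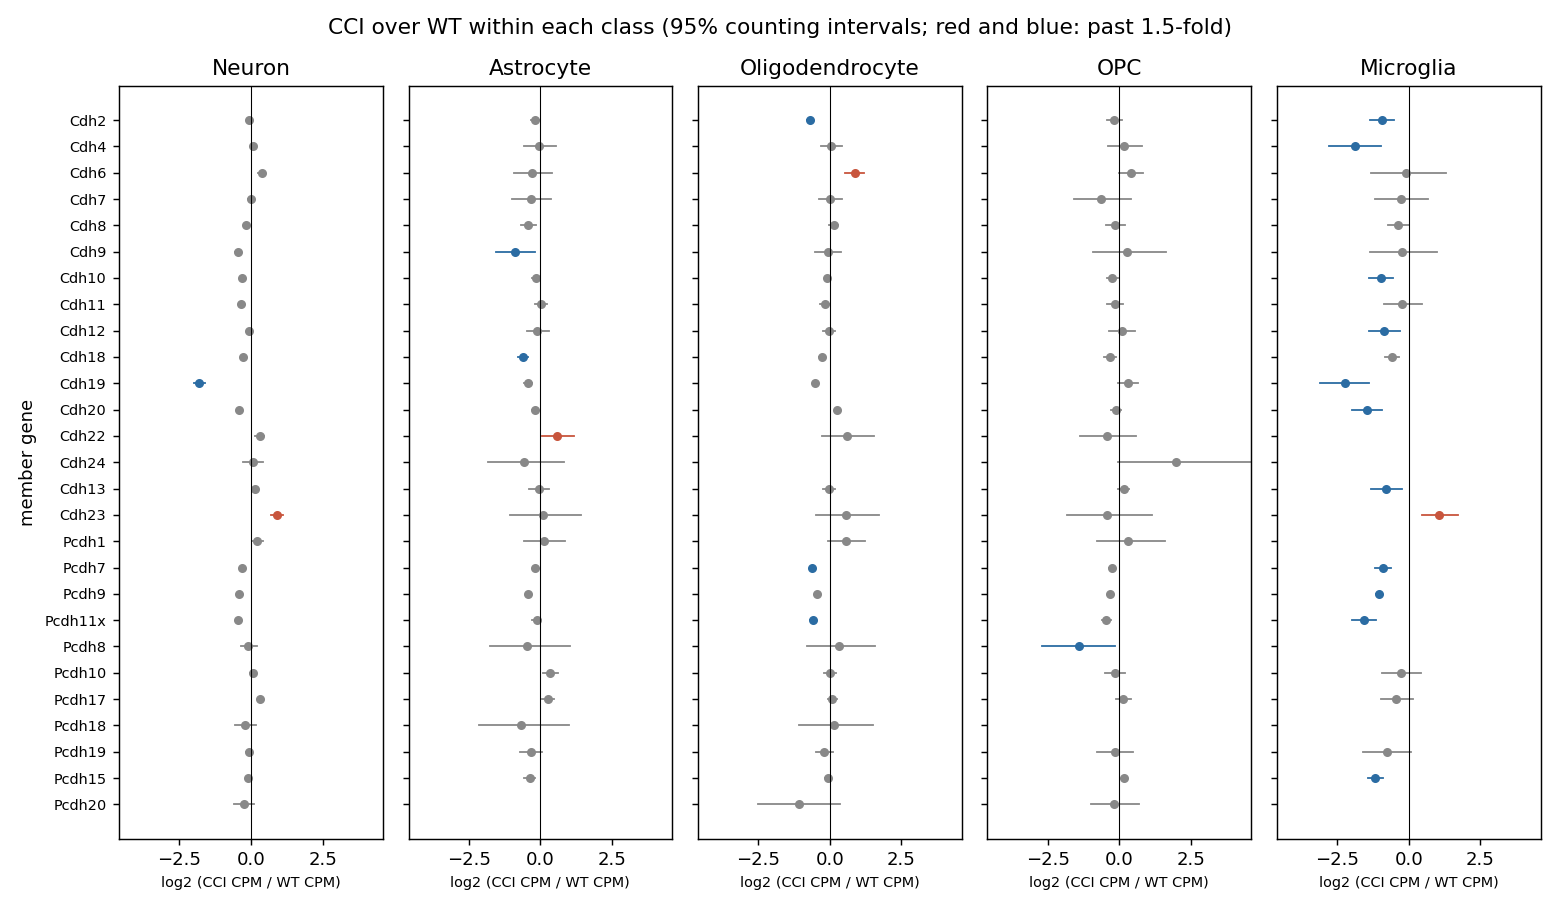
Log2 ratio of CCI over WT CPM with 95% counting intervals (points and bars) for members with at least 20 UMIs in each of 5 cell classes. Red and blue points are past 1.5-fold with an interval excluding 0; microglia hold 11 blue points and 1 red point, and no other class has more than 3 blue points.

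In astrocytes, Cdh22 was higher in CCI (33.7 and 50.6 CPM, log2 ratio 0.59; 5.28% of all genes) and Cdh9 (28.8 and 15.7 CPM, −0.87) and Cdh18 (416 and 273 CPM, −0.61) were lower (4.25%). In oligodendrocytes, Cdh6 was higher (30.3 and 55.3 CPM, 0.86; 6.09%), and Cdh2 (384 and 238 CPM, −0.69), Pcdh7 (667 and 434 CPM, −0.62) and Pcdh11x (780 and 514 CPM, −0.60) were lower (3.81%). The Cdh22, Cdh9 and Cdh18 ratios in astrocytes were not called with stricter filters or with thinning, and Cdh2, Cdh6 and Pcdh7 in oligodendrocytes were called in every other setting except a 2-fold limit. Pcdh11x in oligodendrocytes was called in 5 of 10 other settings. Oligodendrocytes of the libraries lay mostly in different clusters, 3108 WT and 465 CCI nuclei in the largest and 119 and 1806 in the next. In OPCs only Pcdh8 passed (25.6 and 9.59 CPM, −1.42, from 12 UMIs in each library; 3.61% lower and 3.38% higher). Of the 10 catenins and related genes, 1 was higher and 0 lower in CCI in both neurons and oligodendrocytes, Pkp2 in each, and 0 of the 10 WAVE and delta-protocadherin partners passed 1.5-fold in neurons, astrocytes or oligodendrocytes. Ctnna3, an alpha-catenin, was lower in CCI astrocytes (427 and 240 CPM, −0.83), 1 of 9 catenin genes there. In OPCs 1 of 8 catenin genes, Pkp4 (217 and 145 CPM, −0.59), and 1 of 10 WAVE partners, Wasf2 (91.7 and 47.1 CPM, −0.96), were lower, and none of either list was higher. The median log2 ratio over members lay between −0.19 and −0.04 in these 4 classes, against 0.03 to 0.07 over all genes.

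In microglia, Cdh23 was higher in CCI (118 and 247 CPM, log2 ratio 1.07, interval 0.46 to 1.72; 11.2% of all genes) and 11 of 21 members were lower (9.96%). The largest of these were Cdh19 (145 and 31.1 CPM, −2.22), Cdh4 (114 and 31.1 CPM, −1.87) and Pcdh11x (450 and 152 CPM, −1.56). The 7 microglial markers summed to 3424 CPM in WT and 6578 in CCI microglia. The 7 neuronal markers summed to 11511 and 6873 CPM, all 7 lower in CCI and none at 0. Of the other lists, 7 of 8 astrocyte markers and 6 of 7 oligodendrocyte markers were lower, and the part of these lists in the result was not tested. Catenin genes were called in 5 of 9 (2 higher) and WAVE partners in 5 of 10 (2 higher). The microglial class was not found with enough nuclei at clustering resolution 2.0 or under the marker gate. Of 10 other settings, the Cdh4 call was made in 5, the Cdh19 call in 6 and the Pcdh11x call in 8. Without doublet removal, Cdh4, Cdh10, Cdh12, Cdh13 and Pcdh7 were not called.

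Within 6 neuron groups of at least 50 nuclei, 13 of 152 pairs were higher and 20 lower in CCI. This comparison was added after the values were seen, and 1 of these 33 calls, Cdh19 in other GABAergic neurons, was made under all 10 other settings. In dopaminergic neurons no member other than Cdh19 passed (4.74% of all genes higher, 3.47% lower), and Cdh11, Cdh20 and Cdh8 were within 1.5-fold over the whole group. In the subcluster shared by both libraries (834 WT and 138 CCI nuclei) they were lower in CCI, with log2 ratios of −1.21 for Cdh11 (interval −1.38 to −1.04), −0.96 for Cdh20 (−1.21 to −0.72) and −0.91 for Cdh8 (−1.03 to −0.79). The other subcluster held 228 CCI and 0 WT nuclei, with higher levels of all 3 than the CCI nuclei of the shared one. In the Gata3, Tal1, Pax5 type, Cdh20 (85.3 and 42.3 CPM), Pcdh9 (2448 and 1376 CPM) and Cdh7 (81.2 and 45.9 CPM) were lower (3.2%; 4.46% higher), with log2 ratios of −1.01, −0.83 and −0.82. In the Synpo2, Lef1, Prkcd type, Pcdh11x (360 and 180.3 CPM, −0.996), Cdh13 (444 and 239 CPM, −0.90), Cdh20 (115 and 68.2 CPM, −0.76) and Pcdh7 (828 and 538 CPM, −0.62) were lower (4.13%; 2.04% higher). The Cdh20 call was made in 5 and the Pcdh7 call in 6 of 10 other settings. Within the 3 subclusters of that type the Cdh13 ratios were −0.05, 0.03 and 0.18, and the Lypd6b subcluster, where Cdh13 is high, held 49 of 131 WT and 83 of 584 CCI nuclei. In the Ebf2, Ebf3, Lmx1a type, Cdh22 (22.1 and 39.2 CPM, 0.83), Cdh23 (72.9 and 121 CPM, 0.73) and Pcdh20 were higher (3.8%; 2.62% lower). Pcdh20 had 1 and 57 UMIs there, a log2 ratio of 2.89 with an interval of 0.36 to 8.22. The pools of other GABAergic and other glutamate transporter neurons held 19 of the 33 calls (5.18% higher and 4.19% lower, and 7.09% and 4.88%), and several of these changed direction with the processing.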

How the data were processed

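The authors deposited UMI counts per gene and barcode for 1 WT and 1 CCI library. The counts were made with Cell Ranger 7.1.0 per the file headers, and build mm10 and Seurat are named per the submitters' processing notes. Annotation release, strand setting and whether intronic reads were counted: not given in the sources used here; 7 members share exon sequence with another gene, 6 of them on the other strand.

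Nuclei with at least 200 genes and 500 UMIs and at most 20% mitochondrial UMIs were kept. Scrublet in scanpy 1.11.5 (expected rate 10%) marked 1296 WT and 934 CCI nuclei as doublets, which were removed. The 2000 most variable genes without members, scaled within each library, gave 30 principal components, 20 neighbours and Leiden clusters (leidenalg 0.10.2, resolution 1.0), and neurons were clustered again. Clusters were named from fixed marker lists by a rule set after the clusters were seen. UMIs were summed per class and library. Ratios carry exact conditional 95% intervals (scipy 1.17.1), which cover counting error only, since nuclei are not replicates. Classes needed 20 nuclei in each library for marks and 50 for the CCI to WT comparison. TMM factors came from edgeR 4.0.16. The rule for marks was tested on simulated counts for astrocytes only. The mirrored rule and the CCI to WT rule were not tested in this way.

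Named are all members that mark a class or group, up to 3 per direction past the fold between libraries in a class, and the highest members per unit; other names were chosen after their values were seen. Members and lists were chosen with earlier results of these data known. The mirrored rule, the CCI to WT comparison within neuron groups and the CCAAT box were added after values were seen. Gene positions come from GENCODE, in which all 35 members were found, and promoters from RefSeq.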

Additional observations from a re-analysis of the deposited data

Results flagged for a closer look

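For 5 members the CCI over WT log2 ratio was past 1.5-fold in opposite directions in 2 classes or groups. Cdh4 was at 0.75 in other neurons with a vesicular glutamate transporter and at −1.87 in microglia. These calls were made in 7 and 5 of 10 other settings. Cdh13 was at 0.85 in other GABAergic neurons and at −0.90 in neurons of Synpo2, Lef1, Prkcd type, but at −0.05, 0.03 and 0.18 within the 3 subclusters of the latter. In the former, a subcluster led by mitochondrial transcripts besides Ttn held 659 of 1155 WT and 419 of 1396 CCI nuclei, with a ratio of 0.50 within it. Another held 11 WT and 191 CCI nuclei, with Cdh13 at 1346 CPM in CCI. The part of these in the result was not tested. Pcdh8 was at 1.54 in other neurons with a vesicular glutamate transporter and at −1.42 in OPCs, from 5 and 28 UMIs and 12 and 12 UMIs. Pcdh20 was at 2.89 in neurons of Ebf2, Ebf3, Lmx1a type, from 1 and 57 UMIs, and at −1.24 in other neurons with a vesicular glutamate transporter. Cdh9 was at 0.62 in the same pool and at −0.87 in astrocytes. In that pool the direction turned under other settings, for Cdh9 under 5 (−1.60 to −0.18), for Pcdh8 under 2 (−1.61 and −1.44) and for Pcdh20 under 1 (0.078), each to the sign of the other value given here. With 1 library a group, the difference was not tested in any of these.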

How the results depend on the processing

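No paired analysis was possible because each group is 1 library and the labels give no replicate numbers. The count of members that mark a class was 18 and ranged from 13 to 25 over 13 other settings. The count that mark a neuron group was 7, and became 2 at 3-fold, 12 at 1.5-fold, 4 with nuclei thinned to 1000 UMIs (5868 WT and 12488 CCI nuclei remained) and 1 under the marker gate. Members lower in a group were 9, and 3 under the gate. Calls between CCI and WT within classes were 22, and became 14 without doublet removal, 9 at resolution 2.0, 9 under the gate and 9 at 2-fold. Within groups they were 33, and became 20 at resolution 0.5, 18 with thinning and 12 at 2-fold. The causes were not tested.

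Direction changed in 21 cases, 20 of them between CCI and WT and mostly in the pool of other neurons with a vesicular glutamate transporter. There, with stricter filters the log2 ratios were Pcdh7 0.29, Pcdh8 −1.61, Cdh9 −1.60 and Cdh18 0.82. Without doublet removal they were Pcdh7 0.52, Pcdh8 −1.44, Cdh9 −1.42 and Cdh18 0.52, and Cdh23 in other GABAergic neurons was −0.33. At resolution 0.5 they were Pcdh7 0.00072, Cdh23 −0.37, Cdh9 −0.90 and Cdh18 0.46, and at resolution 2.0 Pcdh20 was 0.078. With members allowed in clustering they were Cdh23 −0.34, Cdh9 −0.86 and Cdh18 0.33, and Cdh23 in other GABAergic neurons was −0.28. Under the gate they were Cdh9 −0.18, Cdh22 in the Ebf2, Ebf3, Lmx1a type −0.015, and Pcdh11x in the Sim1 and Calcr type against other neurons in WT −0.037. The median depth per nucleus was lower in WT, at 975.5 against 3459.5 UMIs.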
